A study of Drosophila melanogaster
Drosophila virilis with 26 samples.

Results

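The 6 actin genes of Drosophila melanogaster, Act5C, Act42A, Act57B, Act79B, Act87E and Act88F, were followed through 26 RNA-seq libraries made with 6 library preparation protocols. They were taken by name, as the 6 rows of the full-depth count table whose gene name was exactly one of these symbols, out of 28133 genes, of which 13802 were D. melanogaster genes and 14331 were D. virilis genes. All 6 were found, 2 cytoplasmic actins and 4 muscle actins. The study asked how well protocols for very small amounts of RNA measure known mixtures of total RNA from the embryos of both fly species, beside a standard protocol. TruSeq libraries were made from 100 ng of total RNA, and the Clontech, TotalScript and SMART-seq2 libraries from 1 ng, each with 4 libraries, 1 for each D. virilis share of 0, 5, 10 and 20%. In a later experiment a new set of 1 ng SMART-seq2 cDNA, with an additional 1% mixture, was tagmented at a 2.5x and again at a 5x dilution of the reagents, which gave 5 libraries per dilution. No protocol had 2 libraries of the same mixture.

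All RNA came from pools of whole embryos collected 0 to 4 hours after laying, grown in standard conditions, with no genotype or treatment that differed between groups. The groups were therefore the protocols, and the mixture was the only variable within a protocol. Libraries of a protocol served as its repeat libraries for D. melanogaster genes, after division by each library's own D. melanogaster total. The p-values below measure the spread between libraries and not between separate collections of embryos. In comparisons of protocols this spread holds library preparation and mixture together, except where the mixture was fitted as a block. A gene whose level changed with the mixture has that change in its spread. TruSeq also had a larger input of RNA than every other protocol, so protocol and input cannot be told apart in the comparisons with TruSeq. The dilutions differed from TruSeq in the experiment and the sequencing run as well, which cannot be told apart from the protocol either. The 2.5x and 5x libraries of a mixture shared pre-amplified cDNA, and both dilutions differed from the undiluted SMART-seq2 libraries in the pre-amplification, the number of final PCR enrichment cycles and the sequencing run as well as in the dilution, so these cannot be told apart.

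Actins are the globular proteins that polymerize into filaments. In flies the cytoplasmic actins build the cortex, the furrows and the rings that partition the syncytial embryo into cells and are supplied to the egg by the mother, whereas the muscle actins form the thin filaments of the sarcomere in differentiated muscle. The genes are dispersed in the genome but their coding sequences are nearly identical, so that a short read from the coding part can place equally well on several of them, and mainly the untranslated parts tell one gene from another. In the RefSeq annotation (Release 6 assembly, used here only for names and neighbours) Act5C is CG4027 on chromosome X, Act42A is CG12051 and Act57B is CG10067 on arm 2R, Act79B is CG7478 on 3L, and Act87E is CG18290 and Act88F is CG5178 on 3R. Act57B overlaps a snoRNA gene and Act87E overlaps lncRNA:CR45591 there, and because reads were counted without regard to strand, reads of these pairs cannot be told apart where they overlap.

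The depth on D. melanogaster genes differed strongly between protocols, from 18971801 to 55055710 counts in TruSeq, 1561692 to 7842785 in the undiluted Clontech, TotalScript and SMART-seq2 libraries (the undiluted low-volume libraries), and 11215999 to 19011285 in the dilutions. Reads without a unique place were not counted on any gene. Their share of the alignments was lowest in TruSeq (5.96 to 9.27%) and highest in TotalScript (32.2 to 41.2%), with Clontech at 7.51 to 15.3%, SMART-seq2 at 15.0 to 17.1% and the dilutions at 9.06 to 15.7%. How many of them came from actins cannot be read from a count table, so every actin count below is a count of uniquely placed reads and its relation to the amount of mRNA may differ from gene to gene. Levels are given as CPM, the counts of a gene per 1000000 D. melanogaster counts of the library, without correction for gene length, and levels of different actins are set side by side only as counts. As a check of the tissue, the 8 maternal embryonic genes summed to 5371 to 11452 CPM. The 12 yolk and egg shell genes of adult females summed to at most 2.004 CPM. The 12 zygotic segmentation and patterning genes summed to 153 to 335 CPM, of which hunchback alone made 120 to 308 CPM. In TruSeq the medians of eve and twi from that list were 1.26 and 2.73 CPM, so the sum is mainly a level of hunchback.

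Act5C was among the genes with the most counts in every protocol, ranked from 5 to 8 of all D. melanogaster genes by mean CPM, without correction for length. In TruSeq the 4 libraries gave 3408, 3580, 3373 and 3426 CPM at 0, 5, 10 and 20%, a mean of 3447 ± 91.5 (SD, n = 4). Clontech gave 3905, 3695, 3095 and 3340 CPM in the same order, and TotalScript 4041, 3337, 4329 and 3976 CPM. Both ranges overlapped the range of TruSeq. In SMART-seq2 the values were 4176, 4028, 4135 and 3970 CPM, all above the TruSeq libraries. The 2.5x dilution gave 3811, 3621, 3781, 3588 and 3228 CPM at 0, 1, 5, 10 and 20%, and the 5x dilution 3915, 3735, 3853, 3476 and 3038 CPM, with the 20% library lowest in both. Ordered by mean, the protocols ran from SMART-seq2 (4077 ± 94.8, n = 4) through TotalScript (3921 ± 418, n = 4), the 2.5x dilution (3606 ± 233, n = 5), the 5x dilution (3604 ± 358, n = 5) and Clontech (3509 ± 361, n = 4) to TruSeq, and the ranges of every pair of neighbours in this order overlapped.

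Act42A, the other cytoplasmic actin, was far less abundant in counts and separated the protocols more clearly. The TruSeq libraries gave 289, 288, 283 and 294 CPM at 0, 5, 10 and 20%, a mean of 289 ± 4.69 (SD, n = 4). Clontech gave 329, 313, 270 and 338 CPM and TotalScript 344, 313, 333 and 359 CPM. The Clontech libraries overlapped those of TruSeq, and the TotalScript libraries did not. SMART-seq2 gave 519, 389, 458 and 403 CPM, the 2.5x dilution 432, 452, 504, 465 and 407 CPM, and the 5x dilution 455, 461, 502, 455 and 406 CPM. All 14 libraries of the 3 SMART-seq2 versions stood above all 12 libraries of the other protocols. The means were 442 ± 59.1 (n = 4), 452 ± 36.4 (n = 5) and 456 ± 33.8 (n = 5) for these versions, 337 ± 19.3 (n = 4) in TotalScript and 312 ± 30.2 (n = 4) in Clontech. In the order of the means, SMART-seq2 and TotalScript were the only neighbours whose ranges did not overlap, and the rank of Act42A among all genes moved from 839 in TruSeq to between 334 and 338 in the SMART-seq2 versions.

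**Figure D1:**
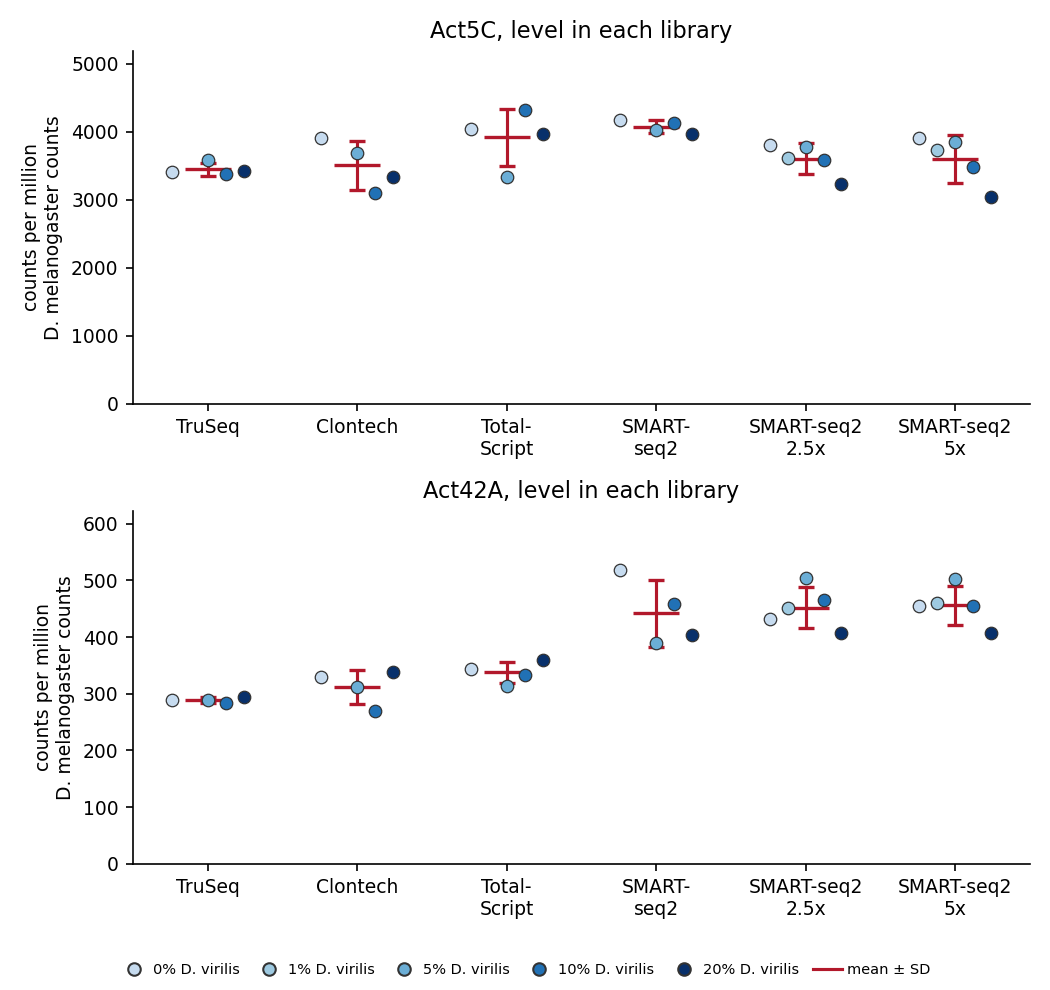
Level of Act5C (top) and Act42A (bottom) in each of the 26 libraries, in CPM of D. melanogaster counts on the y axis, by protocol on the x axis. Points are libraries coloured by the share of D. virilis RNA, and the red bars are the mean and SD of the 4 or 5 libraries; the Act42A points of all 3 SMART-seq2 versions lie above 389 CPM and those of the other protocols at or below 359 CPM.

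The comparisons with TruSeq asked whether a low-volume protocol gives the same level for these genes. Each was tested with edgeR's quasi-likelihood test on all D. melanogaster genes with a mean of at least 1 CPM in the libraries compared, at 0, 5, 10 and 20%, with Benjamini-Hochberg adjustment over all genes tested and a threshold of 0.05. Act42A was higher in SMART-seq2 by 0.62 on the log2 scale (SE 0.10, edgeR adjusted p = 0.00062), 1.53-fold. It was 0.65 higher in the 2.5x dilution (SE 0.077, edgeR adjusted p = 5.4e-05) and 0.65 higher in the 5x dilution (SE 0.074, edgeR adjusted p = 3.0e-05), 1.57-fold in both. In TotalScript the difference was smaller, 0.23 (SE 0.064, edgeR adjusted p = 0.0081), 1.17-fold. In Clontech the log2 difference of Act42A was 0.11 with a 95% interval from -0.059 to 0.28 (edgeR adjusted p = 0.46).

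Act5C was 1.18-fold higher in SMART-seq2 than in TruSeq when scaled to the D. melanogaster total (log2 0.24, SE 0.058, edgeR adjusted p = 0.0055). This was close to the shift of all genes, whose median log2 difference in that comparison was 0.21, and with TMM scaling, which centres most genes, the difference of Act5C was 0.064 (edgeR adjusted p = 0.38). In the other comparisons Act5C did not pass the test. The log2 difference was 0.026 (95% interval -0.13 to 0.18, edgeR adjusted p = 0.87) in Clontech and 0.19 (0.0084 to 0.36, edgeR adjusted p = 0.055) in TotalScript, where it passed once the 5% library was left out (0.26, edgeR adjusted p = 0.0015) and with limma with weights per protocol (0.18, limma adjusted p = 0.024). It was 0.064 (-0.096 to 0.22, edgeR adjusted p = 0.46) in the 2.5x and 0.051 (-0.14 to 0.24, edgeR adjusted p = 0.63) in the 5x dilution, and both changed sign with TMM scaling, to -0.12 and -0.14 (edgeR adjusted p = 0.17 and 0.19). In the dilutions the median of all genes tested was 0.22 above TruSeq. Act42A exceeded this median by 0.41 in SMART-seq2, 0.43 in the 2.5x and 0.44 in the 5x dilution, and with TMM scaling its difference from TruSeq stayed past the threshold in these 3 versions, at 0.43, 0.46 and 0.47 (edgeR adjusted p = 0.0033, 0.00067 and 0.00034).

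**Figure D2:**
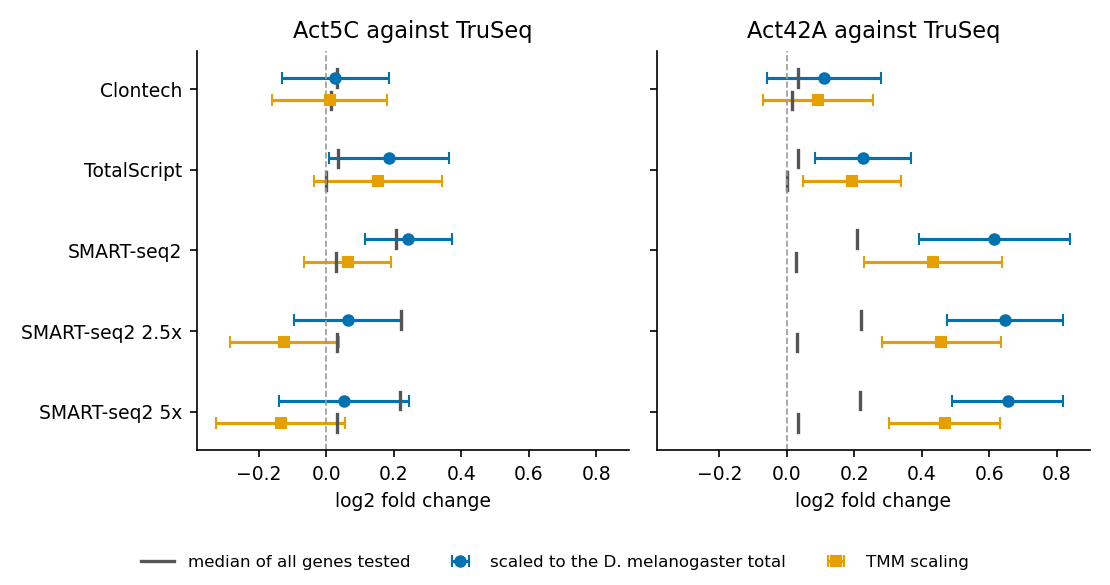
Log2 fold change (x axis) of Act5C (left) and Act42A (right) in each protocol against TruSeq, with 95% intervals, scaled to the D. melanogaster total (blue circles) or by TMM (orange squares); grey ticks mark the median of all genes tested. The intervals of Act42A exclude 0 in TotalScript and in the 3 SMART-seq2 versions under both scalings, and that of Act5C under both scalings in none.

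These calls stand against very different backgrounds. In the comparison of Clontech with TruSeq, 0.17% of all genes tested were called and none of the 3 actins that passed the minimum. At an unadjusted p under 0.05 the count over all genes was 1124 of 6476, and DESeq2 called 385 genes there but no actin. In TotalScript 76.1% of the genes were called, and 2 of the 3 actins tested. In SMART-seq2 55.5% were called, and 3 of 4 actins. Act57B was among the called actins in TotalScript and SMART-seq2, and Act87E was among those tested in SMART-seq2. With TruSeq means of 0.504 and 0.789 CPM, these genes passed the minimum only through the low-volume libraries, so nothing is read from these counts of actins. In the 2.5x and 5x dilutions 63.6% and 65.6% of the genes were called, and in each 1 of the 2 actins tested. A call was common among all genes in these 4 protocols, and 76.4, 77.6 and 77.4% of all genes had a lower log2 difference than Act42A in SMART-seq2, the 2.5x and the 5x dilution. The TotalScript call of Act42A was lost when all 26 libraries entered one fit (edgeR adjusted p = 0.053).

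Between the versions of SMART-seq2 no actin passed the test. Between the 2.5x dilution and SMART-seq2 the log2 difference was -0.18 for Act5C (95% interval -0.42 to 0.059) and 0.031 for Act42A (-0.26 to 0.32). Between the 5x and the 2.5x dilution, fitted with the shared cDNA of each mixture as a block, it was -0.0044 for Act5C (-0.068 to 0.059) and 0.013 for Act42A (-0.051 to 0.076). In these comparisons edgeR called 0% of the genes tested, 0 of 6502 and 0 of 6489, with 196 and 119 genes at an unadjusted p under 0.05. DESeq2 and limma called 0 genes as well.

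The number of Act5C counts per Act42A count does not depend on how a library is scaled. In TruSeq it was 11.8, 12.4, 11.9 and 11.6 at 0, 5, 10 and 20%, a mean of 11.9 ± 0.34 (SD, n = 4). Clontech gave 11.9, 11.8, 11.5 and 9.89, and TotalScript 11.7, 10.7, 13.0 and 11.1. These overlapped TruSeq. SMART-seq2 gave 8.05, 10.3, 9.03 and 9.85 (mean 9.32 ± 1.01, n = 4), the 2.5x dilution 8.83, 8.01, 7.50, 7.72 and 7.93 at 0, 1, 5, 10 and 20% (mean 8.0 ± 0.50, n = 5), and the 5x dilution 8.61, 8.10, 7.68, 7.65 and 7.48 (mean 7.90 ± 0.46, n = 5). Every library of these 3 versions was below every TruSeq library. The ratio is a ratio of uniquely placed counts from genes of unlike length and is no ratio of mRNA molecules.

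**Figure D3:**
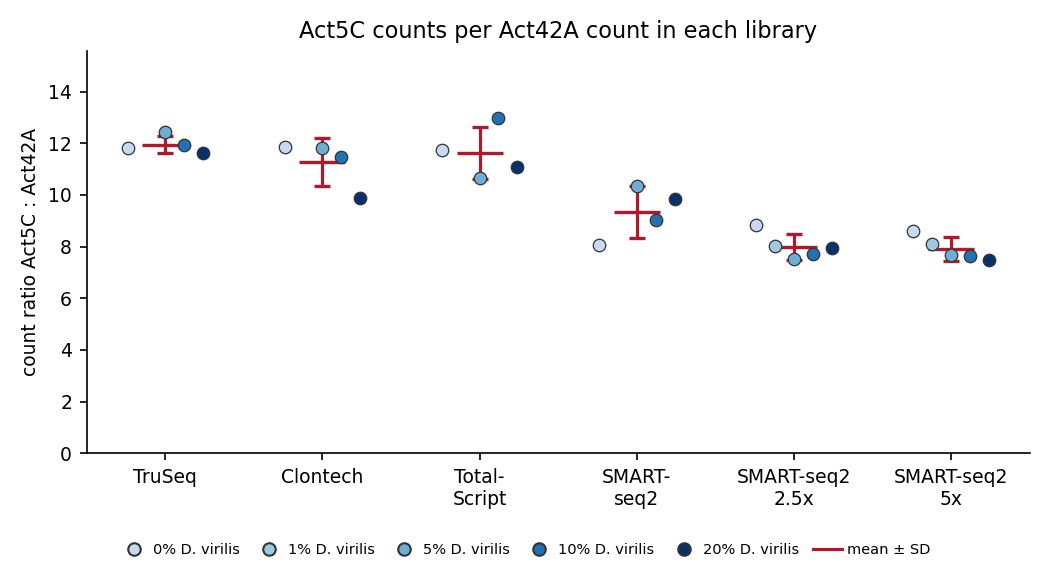
Act5C counts per Act42A count (y axis) in each library, by protocol (x axis), coloured by the share of D. virilis RNA, with the mean and SD in red. TruSeq lies between 11.6 and 12.4, and the SMART-seq2 versions lie between 7.48 and 10.3.

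The spread of the cytoplasmic actins between libraries of a protocol was larger than counting error in every protocol. For Act5C the coefficient of variation was 2.66% in TruSeq, where counting alone gives 0.319%, 10.3% in Clontech, 10.7% in TotalScript, 2.32% in SMART-seq2, and 6.45 and 9.93% in the 2.5x and 5x dilutions. For Act42A it was 1.62% in TruSeq, against 1.10% from counting, 9.68% in Clontech, 5.72% in TotalScript, 13.4% in SMART-seq2, and 8.05 and 7.43% in the dilutions. Genes within 2-fold of the same level were set beside each actin, which was itself counted among them. Their median coefficients were 2.51% for Act5C and 2.44% for Act42A in TruSeq, and 9.59 to 15.1% in the other protocols. Act5C in SMART-seq2 had the lowest coefficient of the 19 genes of similar level, itself included, whose median was 11.5%. Act42A in TotalScript was also among the less variable genes of its level, with 13.3% of them lower and a median of 11.9%, as was Act5C at 2.5x, with 19.2% lower and a median of 10.4%.

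Across the 26 libraries the 2 cytoplasmic actins did not follow each other closely (Pearson r of log2(CPM + 1) of 0.38). The genes whose profile was most like that of Act5C, among 5852 genes with a mean of at least 10 CPM, were MED27, a subunit of the Mediator complex (r = 0.78), and fz3, a receptor of the Frizzled family (r = 0.74). For Act42A they were CG8372 (r = 0.97) and Vha13, a subunit of the vacuolar proton pump (r = 0.95). Vha13 averaged 291 CPM with TruSeq, 355 with Clontech, 391 with TotalScript, 613 with SMART-seq2, 644 at 2.5x and 656 at 5x. These coefficients are a description over libraries that share protocols and depth.

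The muscle actins were near the limit of detection. Together the 4 genes took 0.0341 to 0.0645% of the actin counts in the TruSeq libraries (25 to 95 counts), 0.0116 to 0.209% in the undiluted low-volume libraries (1 to 33 counts) and 0.0311 to 0.113% in the dilutions (18 to 57 counts). In TruSeq, pooled over 4 libraries and 132041800 counts, Act87E had 0.818 CPM (108 counts, Wilson 95% interval 0.678 to 0.987), Act57B 0.507 CPM (67 counts, 0.400 to 0.644), Act88F 0.311 CPM (41 counts, 0.229 to 0.421) and Act79B 0.220 CPM (29 counts, 0.153 to 0.315). Intervals and detection limits cover counting error only. Of 19 sarcomere genes, 3 had a mean of at least 1 CPM over all libraries, and the list summed to 44.9 to 154 CPM, of which the transcription factor Mef2 alone made 42.1 to 148 CPM. The sarcomeric myosin heavy chain Mhc had 16 counts in the 4 TruSeq libraries, at most 0.159 CPM in any of them.

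Act88F encodes the actin of the indirect flight muscle, formed in the pupa. TruSeq held 15, 5, 9 and 12 counts of it at 0, 5, 10 and 20%, and Clontech 0, 0, 2 and 1. TotalScript and SMART-seq2 held 0 counts in all 4 libraries each. A limit of 3 counts over their pooled counts is 0.291 and 0.395 CPM, and the upper Wilson bounds are higher, 0.373 and 0.506 CPM. In TotalScript the limit of 3 counts lay below the TruSeq level of 0.311 CPM but inside its interval, which reaches down to 0.229. The Wilson bound in TotalScript lay above that level, as did the limit and the bound in SMART-seq2. With no minimum level, the log2 difference of Act88F between TotalScript and TruSeq was -5.51 (edgeR interval -10.6 to -0.45, edgeR adjusted p = 0.068). This did not pass the test. Because TotalScript held 0 counts, reads cannot give the size of this difference or its interval, and nothing is read from them. The dilutions, which were deeper, held 12 counts at 2.5x (0.165 CPM, 0.0945 to 0.289) and 22 at 5x (0.299 CPM, 0.198 to 0.453), with at least 1 count in all 10 libraries.

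Act79B encodes an actin of the tubular muscles of the adult, such as those of the leg. Its TruSeq counts were 8, 4, 9 and 8 at 0, 5, 10 and 20%. Clontech had 3 counts in all, and TotalScript and SMART-seq2 had 1 count each. The pooled level was 0.173 CPM (0.0589 to 0.509) in Clontech, 0.303 CPM (0.200 to 0.459) at 2.5x and 0.327 CPM (0.219 to 0.486) at 5x. All of these intervals overlapped that of TruSeq.

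Act87E is an actin of the body wall muscles. It had 46, 10, 28 and 24 counts in TruSeq, which is 0.836, 0.527, 0.892 and 0.901 CPM. Clontech had 1, 3, 11 and 2 counts, TotalScript 3, 0, 1 and 4, and SMART-seq2 1, 1, 5 and 3. The dilutions had 11, 23, 12, 3 and 2 counts at 2.5x and 17, 15, 32, 5 and 13 at 5x, at 0, 1, 5, 10 and 20%. The ranges of all protocols overlapped. Among the comparisons of protocols, Act87E reached the minimum for a test only between SMART-seq2 and TruSeq, where its log2 difference was 0.69 (95% interval -0.65 to 2.03, edgeR adjusted p = 0.35). Its mean was 0.789 CPM in TruSeq and 1.32 CPM in SMART-seq2, there from 10 counts. It thus passed the minimum through the SMART-seq2 libraries, and the direction of this difference carries no weight.

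Act57B, the other actin of larval and embryonic body wall muscle, had its highest level in the 20% library of every protocol. In TruSeq it had 26, 6, 15 and 20 counts at 0, 5, 10 and 20%, which is 0.472, 0.316, 0.478 and 0.751 CPM. Clontech had 1, 3, 18 and 21 counts (0.362, 0.864, 2.30 and 6.46 CPM) and TotalScript 0, 1, 9 and 14 counts (0, 0.640, 2.71 and 4.12 CPM). SMART-seq2 had 0, 3, 6 and 9 counts (0, 1.50, 3.07 and 4.99 CPM). In these 3 protocols the values stood in the order of the mixture. Pooled over the 3, they were 0.151, 0.996, 2.52 and 5.21 CPM, with a Wilson interval of 0.0266 to 0.855 at 0% and 3.88 to 6.99 at 20%. The 2.5x dilution had 13, 11, 4, 13 and 37 counts at 0, 1, 5, 10 and 20% (1.04, 0.648, 0.299, 0.781 and 2.81 CPM) and the 5x dilution 10, 15, 14, 13 and 36 counts (0.674, 0.789, 1.01, 1.16 and 2.46 CPM). Up to 10% the dilutions stayed at or below 1.16 CPM, and only their 20% libraries stood clear of the rest.

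**Figure D4:**
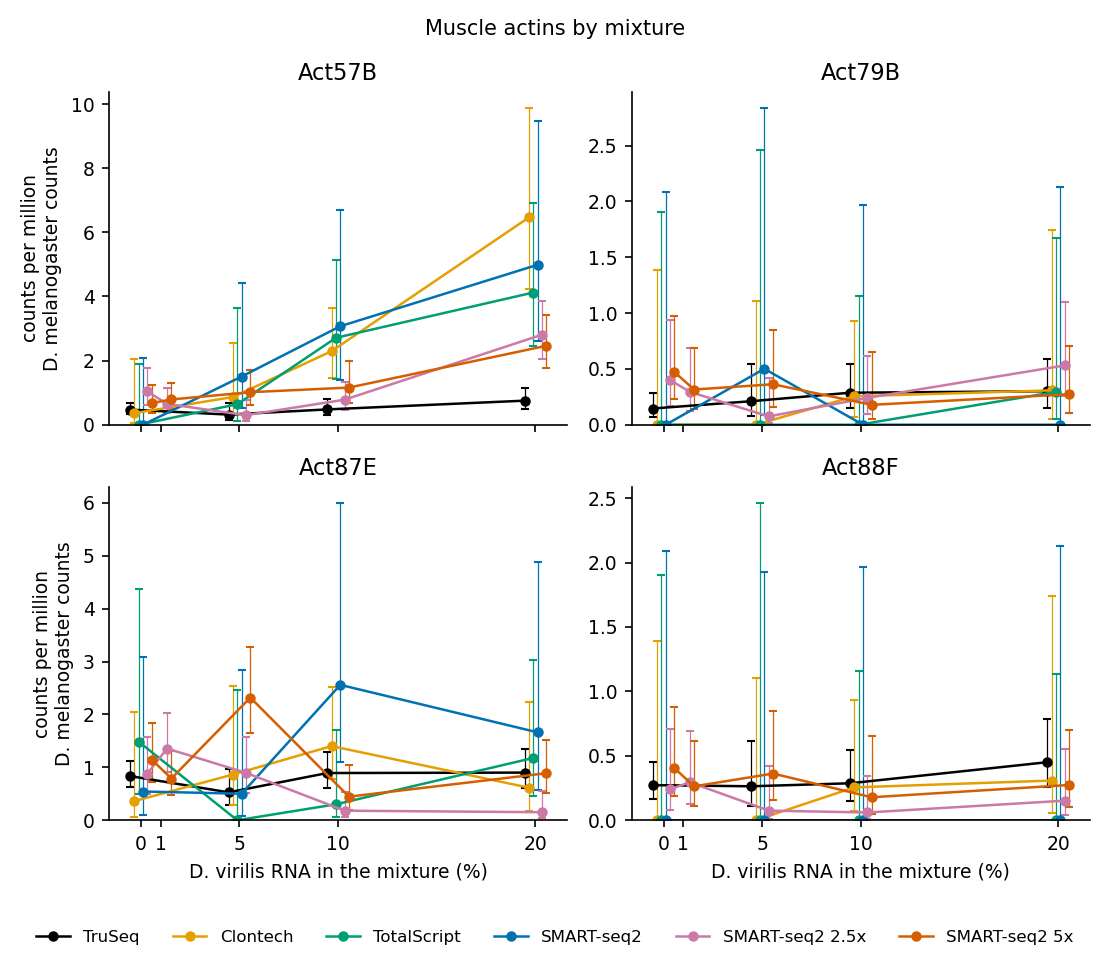
Level in CPM of D. melanogaster counts (y axis) of the 4 muscle actins against the percentage of D. virilis RNA in the mixture (x axis), 1 line per protocol, with points set slightly apart sideways and bars for the Wilson 95% interval of counting error. Act57B reaches 4.12 to 6.46 CPM at 20% in Clontech, TotalScript and SMART-seq2 and 0.751 CPM in TruSeq, whereas Act79B and Act88F stay at or below 0.531 CPM in every library.

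Tested over all 26 libraries with the protocol as a factor, the slope of Act57B was 1.08 on the log2 scale per 10 percentage points of D. virilis RNA (95% interval 0.63 to 1.52, edgeR adjusted p = 0.11), and 1.18 with no minimum level (edgeR adjusted p = 0.062). At 0% Act57B was at or below 1.04 CPM in every library and it passed the minimum of 1 CPM through its high libraries, so the minimum depends on the slope itself and these tests carry that limit. In this fit 0% of the 6518 genes were called, 811 had an unadjusted p under 0.05, DESeq2 called 78 and limma with weights per protocol 14. In that trend Act57B was called by DESeq2 (adjusted p = 0.0030) and by limma (adjusted p = 0.048), and by edgeR once the 20% TruSeq library was left out (adjusted p = 0.035). The 2.5x and 5x libraries are not independent, and without the 5x libraries the slope was 1.13 (edgeR adjusted p = 0.55, DESeq2 adjusted p = 0.060). Fitted within a protocol, it was 1.91 for Clontech, 1.55 for TotalScript, 1.61 for SMART-seq2, 0.92 at 2.5x and 0.87 at 5x, and 0.36 for TruSeq with no minimum level. edgeR called 0% of the genes in each of these low-volume protocols taken alone, with 260 to 957 genes at an unadjusted p under 0.05. A test of whether slopes differ between protocols called 0.153% of the genes and not Act57B (edgeR adjusted p = 0.67).

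For the cytoplasmic actins no slope passed the test. In TruSeq alone, where 0.588% of the genes were called, the slope per 10 points was -0.0092 for Act5C (95% interval -0.054 to 0.036) and 0.013 for Act42A (-0.036 to 0.062). Over all 26 libraries it was -0.072 for Act5C (-0.14 to -0.0036, edgeR adjusted p = 0.38) and -0.037 for Act42A (-0.11 to 0.041, edgeR adjusted p = 0.72).

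Several measures stood beside the values of Act57B. D. virilis genes took 7.17 to 9.40% of the counts on genes in the 20% libraries of the 4 protocols without dilution and 17.6% in both 20% dilution libraries. In the 20% libraries, Act57B scaled to the D. virilis total instead (CPM of D. virilis counts) was 77.5 for Clontech, 53.4 for TotalScript, 56.0 for SMART-seq2, 7.24 for TruSeq, 13.2 at 2.5x and 11.5 at 5x. At 5 and 10% it was 51.6 and 52.3 for Clontech, 22.9 and 88.0 for TotalScript, 75.3 and 74.7 for SMART-seq2 and 12.8 and 9.97 for TruSeq. In the dilutions it was 74.1, 6.54 and 8.61 at 2.5x and 90.0, 22.4 and 12.8 at 5x, for 1, 5 and 10%. These values at 1, 5 and 10% rest on 1 to 18 counts each. The D. virilis rows named as actins, ActC2, ActD1, ActE1 and ActE2, held 56, 23, 23, 39 and 38 counts together at 0, 1, 5, 10 and 20%, which is 0.629, 0.639, 0.432, 0.539 and 0.604 CPM. These rows held counts in libraries without D. virilis RNA and were no higher at 20% than at 0%. The 18 sarcomere genes other than Mef2 summed to 3.62, 9.53, 14.3 and 28.6 CPM at 0, 5, 10 and 20% in the pooled undiluted low-volume libraries, and 14 of the 17 with a count were highest at 20%. In TruSeq the same sum was 4.65, 6.11, 5.13 and 6.38 CPM, and in the dilutions 2.93, 2.33, 0.956, 7.32 and 6.22 CPM at 0, 1, 5, 10 and 20%. Of the sarcomere genes with a count, 10 of 16 were highest at 20% in TruSeq and 4 of 17 in the dilutions, and 15 and 6 were higher at 20% than at 0%. The same shares were not taken over all genes, so nothing is read from these numbers of sarcomere genes. A D. virilis read that was placed on a D. melanogaster gene would be counted as that gene. Whether such reads were part of the Act57B and sarcomere counts in the mixtures was not tested, so these levels are levels of reads placed on the gene.

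In the comparisons of Clontech, TotalScript and SMART-seq2 with TruSeq, Act57B had the largest differences of the actins that passed the minimum. Over the 4 mixtures it stood 2.28 above TruSeq on the log2 scale in Clontech (SE 0.66, edgeR adjusted p = 0.18), 2.17 in TotalScript (SE 0.62, edgeR adjusted p = 0.0090) and 2.21 in SMART-seq2 (SE 0.71, edgeR adjusted p = 0.024). With a TruSeq mean of 0.504 CPM, Act57B reached the minimum of 1 CPM only through the low-volume libraries, so these calls lend no weight to a count of called actins. At 0% D. virilis RNA the order was not the same: TruSeq had 0.472 CPM, Clontech 0.362 CPM from 1 count, and TotalScript and SMART-seq2 0 counts. For these 0 counts a limit of 3 counts is 1.49 and 1.63 CPM, and the upper Wilson bounds are 1.90 and 2.09 CPM. The TotalScript call was lost with the authors' sampled counts (edgeR adjusted p = 0.12) and with limma with weights per protocol (limma adjusted p = 0.056), and without the 10% or the 20% TotalScript library the gene fell below the minimum. The SMART-seq2 call was lost with the sampled counts (edgeR adjusted p = 0.10), with limma with weights per protocol (limma adjusted p = 0.10), with the mixture as a block (edgeR adjusted p = 0.071) and without the 10% SMART-seq2 library (edgeR adjusted p = 0.082), and without the 20% SMART-seq2 library the gene was not tested.

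Among the genes that act on actin, the lists of assembly factors and of myosins and cross-linkers had calls in both directions in TotalScript and the SMART-seq2 versions, and the actin-related proteins in 1 direction per protocol. Of 34 tested genes of filament assembly and turnover (nucleators, cappers, severing factors and their GTPases), 14 were higher and 13 lower in TotalScript than in TruSeq, 11 and 12 in SMART-seq2, 10 and 13 at 2.5x and 13 and 12 at 5x. Their median log2 differences were 0.033, -0.034, 0.089 and 0.068, beside 0.033, 0.21, 0.22 and 0.22 for all genes tested. Over all genes, 39.4% were higher and 36.7% lower in TotalScript, 36.8 and 18.8% in SMART-seq2, 42.0 and 21.6% at 2.5x, and 43.1 and 22.4% at 5x. The largest calls were HSPC300, a subunit of the SCAR complex (1.63), and ssh, the cofilin phosphatase (-2.03), in TotalScript. In SMART-seq2 they were Arpc3A, a subunit of the Arp2/3 complex (0.87), and the GTPase Cdc42 (-2.62), which were also the largest at 2.5x (0.86 and -2.58) and at 5x (0.87 and -2.60).

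Of the myosins and actin cross-linkers, 8 were higher and 14 lower of 25 tested in TotalScript, 5 and 10 of 24 in SMART-seq2, 5 and 11 of 24 at 2.5x and 5 and 14 of 24 at 5x. Their median log2 differences were -0.44, -0.21, -0.33 and -0.35. tmod, which caps the pointed end of the filament, was the highest call in all of these protocols (1.10, 1.39, 1.32 and 1.34), and the lowest were the spectrins beta-Spec in TotalScript (-2.81) and kst in the SMART-seq2 versions (-2.58, -2.97 and -2.87). Of 5 tested actin-related proteins, 0 were higher and 3 lower in TotalScript, and 1, 3 and 3 were higher and 0 lower in the SMART-seq2 versions. The extreme calls were Arp8 (-1.86) in TotalScript, Bap55 (0.31) in SMART-seq2, and Arp6 at 2.5x and 5x (0.56 and 0.63).

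Of the sarcomere genes that passed the minimum, 3 of 5 were higher in TotalScript, led by the thick filament protein Mf (6.10). Only 3 of the 19 sarcomere genes had a mean of 1 CPM in TruSeq, so at least 2 of these 5 passed the minimum through the TotalScript libraries, where they were high, and nothing is read from the count. In SMART-seq2 0 were higher and 2 of 3 lower, led by Msp-300 (-1.42), and 1 of 2 was lower in each dilution, Mef2 (-0.92 and -0.98). Of the 8 maternal genes 5 were higher and 2 lower in TotalScript, with nos (1.802) and tor (-0.68) at the ends, 3 and 2 in SMART-seq2, and 3 and 4 in each dilution, with osk (0.77, 0.71 and 0.66) and pum (-1.49, -1.78 and -1.83) at the ends. Of the zygotic genes 0 were higher and 3 of 10 lower in TotalScript, led by twi (-1.22), and hb was lower in SMART-seq2 and both dilutions (-0.80, -0.73 and -0.79). None of the 12 adult female genes reached the minimum, and no gene of any list was called between Clontech and TruSeq, between the SMART-seq2 versions, or for the mixture by edgeR.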

How the data were processed

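RNA-seq counts of 26 libraries were used. Single-end reads were aligned by the authors with STAR against a joint reference of both FlyBase assemblies, and HTSeq assigned uniquely placed reads to genes, ignoring strand; the submitters' processing notes also name CASAVA 1.8. The deposited values are raw counts. One table holds the full depth, and another holds counts that the authors drew at random to 2559187 alignments per library. The column names say FPKM, yet both tables contain whole numbers throughout and end with the 5 htseq-count categories, so the values were treated as counts. Those 5 rows entered no total and no test.

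The 6 actins were found by exact row name, and the D. melanogaster genes as the rows without the D. virilis prefix. Each library was scaled to its summed D. melanogaster counts. The 6 members and the gene lists were chosen with earlier results of these data known. Pairs of protocols were compared at matched mixtures with edgeR 4.0.16 (robust quasi-likelihood test, norm factors of 1, mean CPM of at least 1, Benjamini-Hochberg adjustment over all genes tested, threshold 0.05), and limma 3.58.1 and DESeq2 1.42.0 were alternatives (R 4.3.3, Python 3.11.15, pandas 2.3.3, scipy 1.17.1, matplotlib 3.10.9). The fits were tested on simulated counts. The other alternatives were TMM scaling, no minimum, the sampled counts, each library left out, the mixture as a replicate block, all 26 libraries in one fit and, chosen after seeing the data, slopes within protocols and their difference, the 0% libraries left out, the 1% library added and the 5x libraries left out.

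The 2.5x and 5x libraries are paired by their shared cDNA, and their deviations from the protocol means correlated at 0.833 to 0.930 in the 5 mixtures. Libraries of a protocol differed beyond sampling noise (chi-square per gene of 2.28 to 106), so each was counted as 1 library. Besides the 6 actins, the text names the D. virilis rows named as actins, the 2 genes most correlated with each cytoplasmic actin, and from each list the called gene with the largest rise and fall against TruSeq. The sarcomere sums by mixture and the markers hb, Mhc and Mef2 as leading or defining genes were chosen after seeing values. No sequences are shown and no length correction was made, since no genome of the files' release was used here.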

Additional observations from a re-analysis of the deposited data

Results flagged for a closer look

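Of 46 sets of libraries checked for a single library far from the others (each actin, the Act5C to Act42A count ratio and the muscle actin share in each protocol), 4 stood out. Chance gives about 1 in 20 for values that vary continuously. This does not hold for sets of few counts, so the number is not set against that rate. Act57B in the 5x dilution at 20% D. virilis RNA stood at 2.46 CPM, with the next library at 1.16 CPM and the lowest at 0.674 CPM. Act88F in TruSeq at 20% stood at 0.450 CPM, with the other libraries between 0.264 and 0.287 CPM. Act79B stood at 0.294 CPM in TotalScript at 20% and at 0.501 CPM in SMART-seq2 at 5%, each from 1 count with 0 counts in the other 3 libraries. A set of that kind always passes the check, so the Act79B flags carry no weight. All 4 rest on few counts, and no cytoplasmic actin and no ratio was among them.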

How the results depend on the processing

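Few reads limit the muscle actins, and 4 or 5 libraries per protocol limit every test. Multiple placement of reads, which was not measured for any actin, can limit all 6. The higher level of Act42A in the 3 SMART-seq2 versions kept its direction and its call under every alternative run. Of 3 actins tested in TotalScript against TruSeq, 2 were called, but 1 with the sampled counts and 1 with all 26 libraries in one fit, and 1 to 3 with a library left out. With limma they were also 2, but Act5C was called and Act57B was not. For the slope with the mixture over all protocols 0 were called, but 1 with DESeq2, 1 with limma and 0 to 1 with a library left out. For SMART-seq2 against TruSeq the 3 called actins became 2 with TMM scaling, DESeq2, the sampled counts, limma weights or the replicate block. In the main fits of TotalScript and SMART-seq2 the called actins include Act57B, which passed the minimum only through the low-volume libraries. Their number carries that limit. With the mixture as a replicate block no other actin call changed, and for the 5x against the 2.5x dilution no gene was called with or without it. Where protocols share only the mixture, libraries of the same mixture correlated at -0.395 to 0.303.

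Signs changed only where no test was passed. Act5C turned to -0.035 in Clontech and to -0.0016 at 5x without the 0% libraries, to -0.12 (TMM) and -0.13 (DESeq2) at 2.5x and to -0.14 and -0.15 at 5x. With the sampled counts the difference of 5x from 2.5x turned to 9.3e-05 for Act5C and -0.24 for Act57B. With a library left out, Act5C ranged from -0.030 to 0.081 in Clontech, -0.017 to 0.016 for 5x against 2.5x and -0.033 to 0.0037 for the TruSeq slope. Act42A ranged from -0.025 to 0.12 for 2.5x against SMART-seq2, -0.0029 to 0.023 for 5x against 2.5x and -0.029 to 0.026 for the TruSeq slope, and Act57B from -0.031 to 0.39 for 5x against 2.5x.

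Counts of called genes moved in Clontech from 11 to 385 (DESeq2), 24 (no minimum), 22 (limma), 45 (replicate block), 4 (all libraries), 0 (without the 0% libraries) and 1 to 723 with a library left out, the last without the 10% Clontech library. They moved from 0 to 19 for 2.5x against SMART-seq2 without the 0% libraries. For the TruSeq slope 38 became 20 (TMM), 109 (no minimum), 14 (sampled) and 9 to 421, and for the slope over all protocols 0 became 78 (DESeq2), 63 (no minimum), 14 (limma), 1 or 2 without the 5x libraries and 0 to 20. TMM scaling moved the split of higher and lower calls from 2389 and 1218 to 1679 and 1613 in SMART-seq2, from 2724 and 1400 to 1975 and 1859 at 2.5x and from 2799 and 1455 to 2063 and 1883 at 5x. The alternative with uniquely placed 50-base windows was not run, since no genome was used here.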
